A study of Homo sapiens with 18 samples.

Results

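The average effect of 3 routes into epithelial to mesenchymal transition (EMT) was measured in HCC827, an established EGFR-mutant human lung adenocarcinoma line that grows as an epithelium. For each gene it is the mean of 3 differences on the log2 scale: TGFB1-treated minus parental cells, cells with the SNAIL-V5 virus minus cells with the lacZ virus, and cells with a CDH1 hairpin virus minus cells with a non-target hairpin virus. All 6 groups, each of 3 arrays, entered 1 linear model, so all 18 arrays and all 20046 annotated genes of the series were used. Of these genes, 1570 moved the same way in each of the 3 pairs. A gene is called shared below when its average and each of its 3 effects had an adjusted p under 0.05 and 1 sign. Adjusted p-values are two-sided values from limma with Benjamini-Hochberg adjustment over the 20046 genes, and a value after ± is the standard error of the fit, with 3 arrays in each group.

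The parental group was untreated HCC827. The TGFB1 group was the same line kept with the cytokine for 30 days by the sample labels, whereas the series text gives 10 ng/mL for 72 h. The lacZ control and SNAIL-V5 cells carried the pLX303 vector, with SNAIL tagged by V5, and both hairpin groups (shNT and shCDH1 below) carried pLKO1. The virus pairs therefore have a virus in the control as well, and the cytokine pair has none. The labels used here do not say whether a virus line was a pool or a clone, how many hairpins were used, or whether arrays of a group came from separate cultures. The p-values then measure the spread between these arrays, which may be technical. The arrays hold bulk RNA, so a change in every cell and a change in the share of cells with the gene on cannot be told apart.

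EMT is the change in which epithelial cells give up their cell-to-cell junctions and apical surface and take on a motile, matrix-producing form. E-cadherin, the product of CDH1, holds adherens junctions together, and transcription factors of the SNAIL and ZEB families repress it by binding E-box letters in promoters of epithelial genes. TGF-beta is the best known extracellular inducer of this change and acts through SMAD proteins. In EGFR-mutant lung cancer, EMT is known as one of the states in which cells tolerate EGFR inhibitors. The 3 routes enter this circuit at the ligand, at the repressor and at the junction itself.

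Array medians lay between 152.1 and 235.8 intensity units before normalization, and each of the 18 arrays correlated best with an array of its own group (0.989 to 0.994 within groups). The 2 dimmest arrays were both TGFB1 arrays. Levels below are log2 normalized intensities after background correction with an offset of 50, which holds the dimmest probes near 6 and makes fold changes of dim genes smaller than they were. The hairpin's target CDH1 was lower on the shCDH1 arrays (8.82, 8.84 and 8.14) than on the shNT arrays (13.02, 13.04 and 12.94). SNAI1, the gene of the introduced SNAIL, lay at 6.04, 6.15 and 6.28 on the SNAIL arrays and 6.29, 6.10 and 6.49 on the lacZ arrays, an effect of -0.14 (adjusted p = 0.528). Whether its probe lies in the introduced sequence was not tested, so it does not check that label. Of 9 haematopoietic, 8 endothelial and 7 neuroendocrine markers, 2, 0 and 2 had a mean above the median probe. None was shared, where 3.61% of all genes were shared higher and 4.23% shared lower. That count says little in lists of this size. The average was called higher for 3, 2 and 1 of them, against 22% of all genes, with DLL3 highest at 1.11. It was called lower for 0, against 18.9%. Each list's mean level stayed within 7.14 to 7.44, 6.30 to 6.58 and 6.77 to 7.25 over the 18 arrays. Of 11 HCC827 identity genes, 10 had a mean above the median probe and 5 were shared and lower, against 4.23% of all genes. EGFR itself averaged -0.12 ± 0.04 (SE).

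The average was called for 8198 of 20046 genes, or 40.9%. It was higher for 4406 genes (22% of those tested) and lower for 3792 (18.9%), and it reached 1 log2 unit for 531 and 643 of them. For most called averages, not every pair was called on its own. A pair without a call could still move with the average. All 3 effects had 1 sign for 57.9% of the higher and 61.2% of the lower calls. Among the higher calls, 145 had no pair that was called on its own, 1724 had 1 such pair, 1814 had 2 and 723 had all 3. For the lower calls the same counts were 144, 1241, 1560 and 847. The shared genes were thus 723 higher (3.61% of genes tested) and 847 lower (4.23%). By single pair, TGFB1 gave 15.5% of genes higher and 15.7% lower, SNAIL 19.6% and 17%, and the CDH1 hairpin 17.9% and 16%. The median standard error was 0.0739 for the average and 0.128 for a single effect.

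Higher calls made up 53.7% of called averages with quantile normalization. Without normalization between arrays they made up 37.1%, and the median TGFB1 effect over all genes then lay at -0.222 and that of the average at -0.0569. All directions below are therefore relative to the bulk of genes. Without that normalization, 829 of the 1570 shared genes kept the call and none was called in the opposite direction. With the 2 dimmest TGFB1 arrays left out, 1215 of 1570 kept it; the lone TGFB1 array was then assumed to vary like the other groups.

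**Figure D1:**
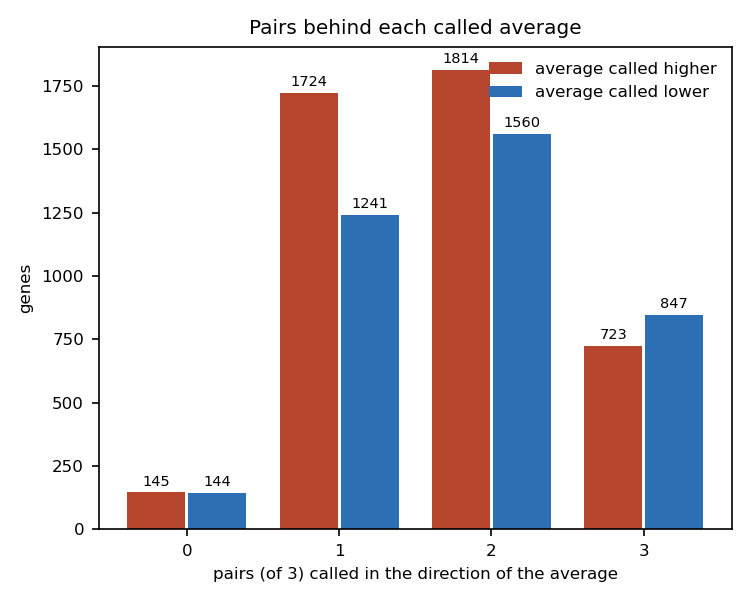
Number of genes (vertical axis) with a called average, by how many of the 3 pairs were called in the direction of the average (horizontal axis), for higher and lower averages. The 1724 and 1814 higher averages with 1 or 2 pairs called outnumber the 723 with all 3 called.

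Across the 20046 genes the effects of the pairs correlated at r = 0.416 (TGFB1 and SNAIL), 0.395 (TGFB1 and the CDH1 hairpin) and 0.445 (SNAIL and the CDH1 hairpin). The 3 pairs share no array, but genes are not independent replicates, so no p is given. The shared call requires each effect to be called, which favours genes whose arrays lie apart. Accordingly, 688 of 723 higher and 813 of 847 lower genes had no overlap between the arrays of any pair. This separation is no added support for them. Over all genes, non-overlap in 1 direction in all 3 pairs was seen in 4.77% (higher) and 5.04% (lower). All 9 treated arrays stood above all 9 control arrays for 488 genes (2.43%), and below them for 550 (2.74%). Each of the 3 effects reached 1 log2 unit for 139 shared higher genes (0.693% of genes tested) and 212 shared lower genes (1.06%). Sharing a direction did not mean sharing a size. The moderated F test for unequal effects was called for 43.5% of all genes, for 467 of the 723 shared higher and for 598 of the 847 shared lower genes. Of the 351 shared genes past 1 log2 unit in each pair, 51 gave no call of unequal size. Among the shared lower genes the CDH1 hairpin gave the largest fall most often (378 of 847), and among the shared higher genes SNAIL gave the largest rise most often (299 of 723).

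The 15 leading genes that rose by every route, ordered by the weakest of their 3 effects, included secreted and matrix proteins and developmental transcription factors. HTRA1, a secreted serine protease that cleaves matrix proteins and binds TGF-beta ligands, stood first. Its level was 6.29, 6.33 and 6.30 in the parental arrays and 11.95, 11.99 and 11.74 in the TGFB1 arrays. In the virus pairs it was 6.75, 6.82 and 6.74 in the lacZ arrays and 12.63, 12.66 and 12.36 in the SNAIL arrays, and 6.33, 6.34 and 6.32 in the shNT arrays and 10.74, 10.42 and 9.96 in the shCDH1 arrays. All 9 control arrays lay near or below the median of all probes (6.82) and all 9 treated arrays far above it. The effects were 5.59, 5.78 and 4.04 for TGFB1, SNAIL and the CDH1 hairpin, an average of 5.14 ± 0.08 (SE), or 35.2-fold (adjusted p = 2.54e-26). The hairpin gave the smallest rise, and the 3 effects differed (F adjusted p = 4.26e-08). With an offset of 16 in the background correction the average was 5.83, and with a floor in its place 4.19.

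COL6A1, a chain of the microfibrillar collagen VI, rose by every route with no call of unequal size. Its level was 6.62, 6.60 and 6.62 in the parental arrays and 10.23, 10.29 and 10.00 in the TGFB1 arrays. It was 6.57, 6.58 and 6.89 in the lacZ arrays and 9.77, 9.71 and 9.95 in the SNAIL arrays, and 6.79, 6.58 and 6.53 in the shNT arrays and 9.78, 9.85 and 9.71 in the shCDH1 arrays. Groups did not overlap in any pair, which the choice of leading genes required, and the 3 control groups stood at one level. The average was 3.28 ± 0.07 (SE), or 9.69-fold, with effects of 3.56, 3.13 and 3.14 (F adjusted p = 0.0562). COL6A2, its partner chain, averaged 1.65 ± 0.08 (1.01 over the mean of its 3 probes) with effects of 2.32, 1.32 and 1.32.

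The other genes near the top had varied roles. ACKR3, a scavenging receptor for the chemokine CXCL12, averaged 4.46 ± 0.07, with its largest rise under TGFB1 (6.33 ± 0.12). MSX1, a homeobox factor of mesenchyme and neural crest, averaged 4.20 ± 0.07, largest under the CDH1 hairpin (5.14 ± 0.12). PRRX2, a mesenchymal homeobox factor, averaged 3.55 ± 0.07. ANTXR1, a cell-surface receptor for collagen and for anthrax toxin, averaged 3.84 ± 0.06, largest with SNAIL (5.32 ± 0.11). FBLN1, a fibulin of elastic fibres and basement membranes, averaged 3.45 ± 0.09 on its brightest probe and 1.25 over the mean of its 5 probes, of which 2 were not called. JAM3, a junctional adhesion molecule found on endothelium and fibroblasts, averaged 3.59 ± 0.06. TMEM158 and LIX1L averaged 3.38 ± 0.07 and 3.18 ± 0.07. CCN2, a matricellular protein and a textbook target of both SMAD and YAP signalling, averaged 3.56 ± 0.07 with effects of 2.78, 3.71 and 4.18. The cancer-testis genes MAGEB2, SPANXA2 and SPANXB1, whose proteins are normally made in the testis, averaged 4.17 ± 0.07, 3.69 ± 0.08 and 3.38 ± 0.08. SPANX genes are near-identical copies, so which of them a probe measures is uncertain. All 15 leading higher genes had adjusted p-values for the average between 2.18e-26 and 1.96e-21.

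**Figure D2:**
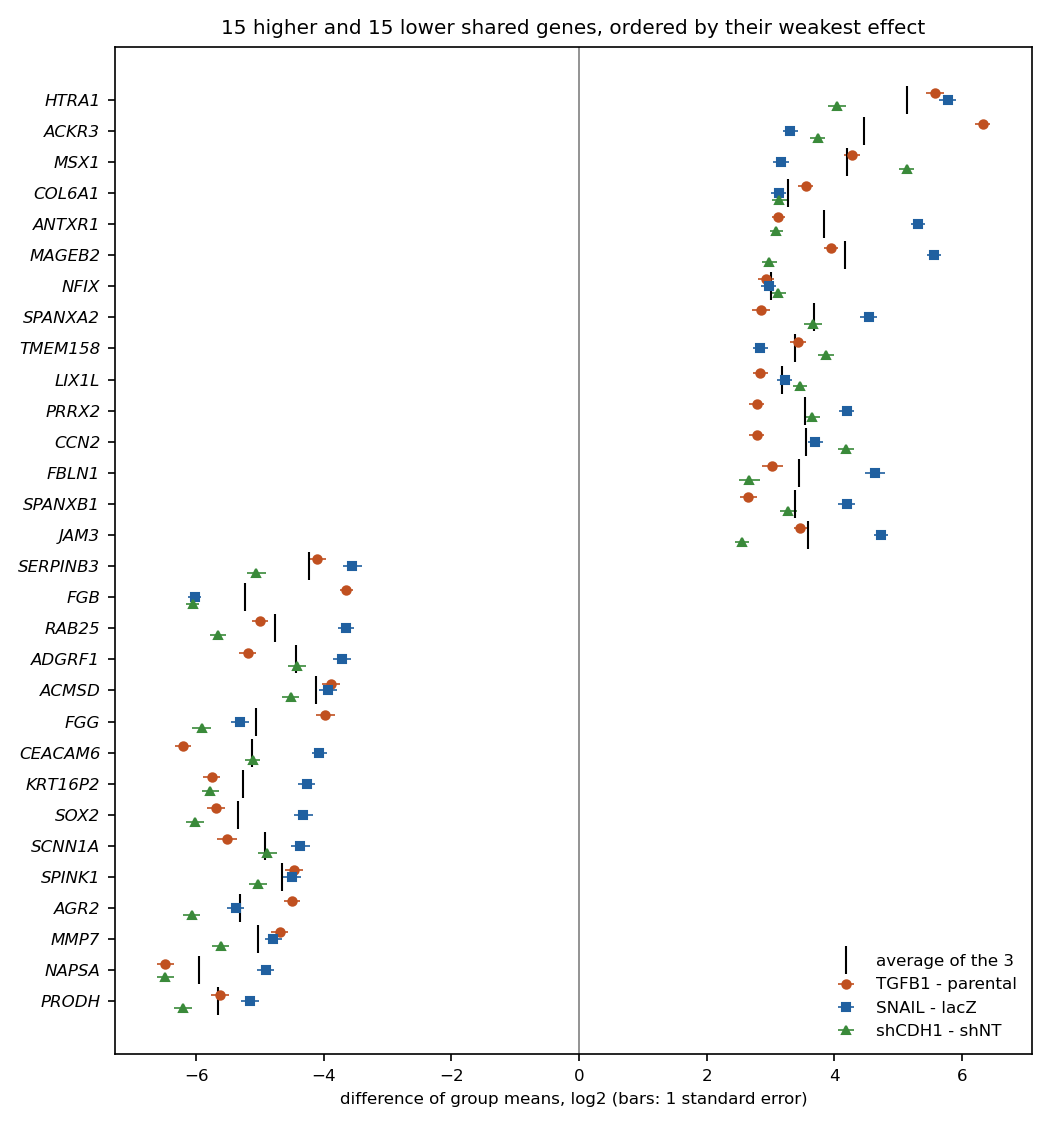
Effects of the 3 routes (horizontal axis, log2 difference of group means with 1 standard error) for the 15 higher and 15 lower shared genes with the largest weakest effect (vertical axis). Circles are TGFB1 minus parental, squares SNAIL minus lacZ, triangles the CDH1 hairpin minus the non-target hairpin, and black ticks their average. No gene has an effect on the other side of 0, as the choice of shared genes required, and NFIX has its 3 effects closest together.

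The leading genes that fell by every route moved further than those that rose, and several are products of secretory epithelium. NAPSA, the aspartic protease of alveolar type II cells that is used as a marker of lung adenocarcinoma, had the largest average of the leading 15. Its level was 13.29, 13.33 and 13.27 in the parental arrays and 6.78, 6.97 and 6.69 in the TGFB1 arrays. In the virus pairs it was 11.62, 11.07 and 11.71 in the lacZ arrays and 6.40, 6.62 and 6.64 in the SNAIL arrays, and 12.76, 13.01 and 12.86 in the shNT arrays and 6.43, 6.30 and 6.43 in the shCDH1 arrays. All 9 treated arrays lay near or below the median of all probes, and the lacZ arrays began lower than the other controls. The effects were -6.49, -4.91 and -6.49, with an average of -5.96 ± 0.08 (SE), 62.4-fold lower (adjusted p = 1.23e-27). With an offset of 16 the average was -6.60 and with a floor -5.05.

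PRODH, the mitochondrial enzyme that begins proline breakdown, had the largest weakest effect of all shared genes. It lay at 12.92, 12.94 and 13.02 in the parental arrays and 7.37, 7.24 and 7.37 in the TGFB1 arrays. It lay at 11.28, 10.79 and 11.39 in the lacZ arrays and 5.93, 6.01 and 6.03 in the SNAIL arrays, and at 12.96, 12.78 and 13.02 in the shNT arrays and 6.85, 6.94 and 6.36 in the shCDH1 arrays. As for NAPSA, the arrays of each pair were far apart. Its average was -5.67 ± 0.08, 50.8-fold lower, and its effects were -5.63, -5.16 and -6.21.

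RAB25, a small GTPase of apical recycling endosomes in epithelia, stood at 12.23, 12.45 and 12.64 in the parental arrays and 7.28, 7.44 and 7.61 in the TGFB1 arrays. It stood at 10.25, 10.13 and 10.20 in the lacZ arrays and 6.51, 6.59 and 6.52 in the SNAIL arrays, and at 12.14, 12.26 and 12.20 in the shNT arrays and 6.34, 6.50 and 6.79 in the shCDH1 arrays. The lacZ arrays lay below the other controls and above every treated array. The average was -4.77 ± 0.07, with the smallest fall in the SNAIL pair (-3.65 ± 0.12) and F adjusted p = 1.35e-09.

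The rest of the leading lower genes had averages between -4.12 and -5.34. Secreted or surface products among them were MMP7, the epithelial metalloprotease matrilysin (-5.03 ± 0.08), AGR2, a disulfide isomerase needed for mucin folding (-5.32 ± 0.08), SPINK1, a trypsin inhibitor (-4.66 ± 0.08), and CEACAM6, a surface adhesion glycoprotein (-5.13 ± 0.07). SCNN1A, the alpha subunit of the epithelial sodium channel, averaged -4.92 ± 0.09, and the adhesion receptor ADGRF1 -4.44 ± 0.08. SOX2, a transcription factor of airway progenitors, averaged -5.34 ± 0.08 with effects of -5.69, -4.32 and -6.02. ACMSD, an enzyme of tryptophan breakdown, averaged -4.12 ± 0.08, and SERPINB3, a cysteine protease inhibitor of squamous epithelium, -4.24 ± 0.08. The fibrinogen chain genes FGB and FGG, best known from liver, averaged -5.24 ± 0.06 and -5.07 ± 0.08; both stood higher on the virus controls (FGB at 12.70 and 13.05) than on the parental arrays (11.13). The pseudogene KRT16P2 averaged -5.27 ± 0.08, and its letters are close to those of KRT16, which averaged -1.67 ± 0.10, so which of them its probe measures is uncertain.

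Averages depend on the probe. Each value above is that of the gene's brightest probe, and of 122 genes named by rule with a called average, 53 had more than 1 probe. With the mean of all probes, 24 of these moved by over 1.5 times, and all 24 stayed called with the same sign. Of the leading genes, ANTXR1 then averaged 2.33, SPANXB1 1.31, FGG -2.30 and ADGRF1 -2.74. Among genes described further on, the mean of all probes gave 1.30 for ZEB2, -1.75 for ERBB3, 2.18 for LUM, 0.65 for TNFRSF19, 0.97 for FZD7, -0.83 for SREBF1 and -1.17 for SEMA4B. It gave 1.74 for CALB2, 0.87 for MME and -2.33 for COXFA4L3. Of the 20 that were shared, 16 stayed shared. EPCAM and JUP were among the genes that gained the shared call with that mean. Other list members described further on moved as far: PKP3 to -0.67, JUP to -1.57, FOXA2 to -0.57, ADAM19 to 1.81, TAGLN to 0.40, CDH6 to 0.78, DDR1 to -0.71, BCL2 to 0.51, LAMP3 to -0.87 and IL1RN to -0.47, and MMP28 to -0.12, where it was not called (adjusted p = 0.0998).

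Some shared genes gave no call of unequal size. NFIX, a nuclear factor I transcription factor, rose by 2.93 ± 0.12, 2.97 ± 0.12 and 3.13 ± 0.12 (F adjusted p = 0.626), although its control level differed. It lay at 6.84, 6.83 and 6.61 in the parental arrays and 9.74, 9.67 and 9.67 in the TGFB1 arrays. It lay at 8.40, 8.39 and 8.61 in the lacZ arrays and 11.41, 11.36 and 11.56 in the SNAIL arrays, and at 7.65, 7.91 and 7.47 in the shNT arrays and 10.87, 10.91 and 10.63 in the shCDH1 arrays. DUSP6, the phosphatase that limits ERK, averaged -1.39 ± 0.06 with effects of -1.40, -1.45 and -1.33 (F adjusted p = 0.829). Those are values of its brightest probe. The other DUSP6 probe had effects of -2.37, -1.01 and -0.69, so the likeness in size depended on the probe. ZEB1, the E-box repressor, rose with effects of 1.33, 1.32 and 1.64 (F adjusted p = 0.313). An F test that misses the threshold does not show that the effects are equal.

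Promoter letters were then read for the shared genes, in windows of 300 bases around the start of transcription from RefSeq (GRCh38.p14), which matched 15033 of the 20046 genes. The E-box letters CACCTG, or CAGGTG on the other strand, which SNAIL and ZEB proteins are known to bind, were in 19.6% of all first-listed windows. They were in 200 of 666 windows of shared lower genes (30%) and in 60 of 156 windows of those past 1 log2 unit in each pair (38.5%). In shared higher genes they were in 13.2%, and in those past 1 log2 unit in 11.9%. At least 2 copies stood in 3.06% of all windows and in 14.1% of the last lower set. The median GC content was 62.7% over all windows, 59.8% in that lower set and 66.7% in the higher one; its part in the shares was not tested. The TEAD letters CATTCC, or GGAATG, were in 11.6% of all windows, in 20 of 109 windows (18.3%) of the higher genes past 1 log2 unit and in 14.7% of the lower ones. The AP-1 letters TGANTCA, in which N is any base and which read alike on both strands, were in 5.85% of all windows, 6.42% of that higher set and 10.9% of that lower set. These shares are descriptions with no test, and a match is not a site. Of the genes named by rule that have a window, 13 of 54 shared lower and 4 of 30 shared higher ones held the E-box letters. NAPSA, MMP7 and SOX2 were among the lower genes that held none. The following 4 windows, chosen after their letters were seen, are therefore not typical of the named genes. They are of shared lower genes whose E-box letters, in capitals, occur 2 times or more.

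SPINK1 (chr5:147831622-147831921, minus strand): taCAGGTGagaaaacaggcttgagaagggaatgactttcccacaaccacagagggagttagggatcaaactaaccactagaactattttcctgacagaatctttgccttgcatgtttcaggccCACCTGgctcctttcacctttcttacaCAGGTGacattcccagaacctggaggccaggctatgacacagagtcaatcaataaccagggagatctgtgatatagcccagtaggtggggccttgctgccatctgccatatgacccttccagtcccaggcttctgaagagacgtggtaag

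RAB25 (chr1:156060910-156061209, plus strand): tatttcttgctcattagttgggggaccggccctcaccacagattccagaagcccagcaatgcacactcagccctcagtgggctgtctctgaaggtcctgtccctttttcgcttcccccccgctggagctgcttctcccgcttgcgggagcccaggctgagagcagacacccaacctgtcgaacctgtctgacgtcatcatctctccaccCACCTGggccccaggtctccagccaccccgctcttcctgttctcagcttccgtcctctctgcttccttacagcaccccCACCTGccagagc

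MUC1 (chr1:155192866-155193165, minus strand): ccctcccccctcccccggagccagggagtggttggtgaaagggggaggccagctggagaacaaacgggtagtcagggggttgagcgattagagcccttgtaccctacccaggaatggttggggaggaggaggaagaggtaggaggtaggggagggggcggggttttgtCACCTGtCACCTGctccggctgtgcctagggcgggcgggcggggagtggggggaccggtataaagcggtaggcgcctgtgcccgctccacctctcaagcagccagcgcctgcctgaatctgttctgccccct

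CLDN7, the second of its 2 windows (chr17:7262429-7262728, minus strand): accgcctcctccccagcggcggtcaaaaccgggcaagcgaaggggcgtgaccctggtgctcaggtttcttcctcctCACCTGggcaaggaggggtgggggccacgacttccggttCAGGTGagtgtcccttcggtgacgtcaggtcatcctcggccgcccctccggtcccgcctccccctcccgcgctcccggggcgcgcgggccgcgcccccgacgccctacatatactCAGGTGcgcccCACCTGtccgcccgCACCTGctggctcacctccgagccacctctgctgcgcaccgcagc

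These hold 3, 2, 2 and 5 copies in the order shown; the first-listed CLDN7 window holds 0. All 4 genes fell in each pair, with effects of -4.46, -4.49 and -5.03 for SPINK1, -5.00, -3.65 and -5.66 for RAB25, -5.25, -2.22 and -6.06 for MUC1 and -1.29, -4.24 and -2.53 for CLDN7, in the order TGFB1, SNAIL and the CDH1 hairpin. The window of CCN2, which rose in each pair, is shown with its 3 TEAD matches in capitals.

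CCN2 (chr6:131951323-131951622, minus strand): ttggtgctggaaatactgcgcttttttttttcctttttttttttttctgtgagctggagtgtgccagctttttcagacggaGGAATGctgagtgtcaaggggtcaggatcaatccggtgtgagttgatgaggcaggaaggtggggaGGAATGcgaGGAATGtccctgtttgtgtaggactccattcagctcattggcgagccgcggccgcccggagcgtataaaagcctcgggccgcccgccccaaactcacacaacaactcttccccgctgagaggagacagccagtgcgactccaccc

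**Figure D3:**
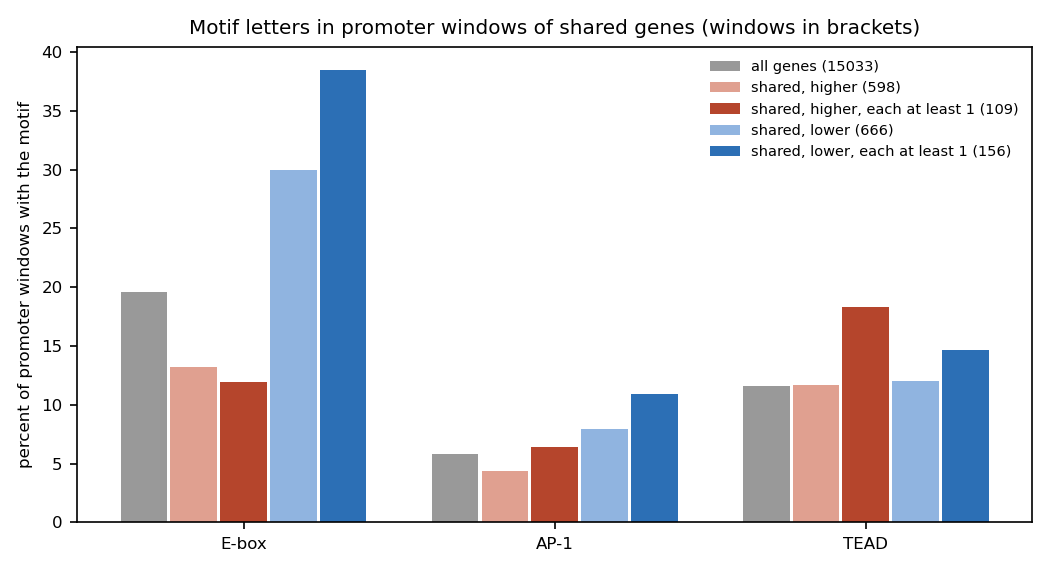
Percent of promoter windows (vertical axis) that hold E-box, AP-1 or TEAD letters, for all genes, for shared genes and for shared genes past 1 log2 unit in each pair. E-box letters were in 38.5% of the windows of the last lower set against 19.6% of all windows.

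The classical EMT genes were mostly shared but far from equal. CDH1 averaged -3.45 ± 0.07 (SE), 11-fold lower, almost all of it from the virus pairs, in which it fell by 5.62 ± 0.12 and 4.40 ± 0.12 on the log2 scale. Under TGFB1 its level was 12.78, 12.61 and 12.67 against 13.04, 13.06 and 13.01 on the parental arrays, an effect of -0.35 ± 0.12 (adjusted p = 0.0317). The arrays of that pair did not overlap, but the call was close to the threshold. It was lost with median centring (adjusted p = 0.155), without the 2 dimmest arrays (0.193), and without parental array 1 (0.0709), 2 (0.0881) or 3 (0.0588) or TGFB1 array 2 (0.115) or 3 (0.0762). EPCAM, an epithelial surface adhesion protein, averaged -2.95 ± 0.05 but was not shared on its brightest probe. With the mean of its 3 probes it was shared, and its other probes had TGFB1 effects of -0.28 and -0.95. On the brightest probe it stood at 13.70, 13.54 and 13.56 in the parental arrays and 13.36, 13.45 and 13.32 in the TGFB1 arrays. That difference was not called (adjusted p = 0.0517). It stood at 13.65, 13.76 and 13.64 with lacZ and 7.95, 7.89 and 7.71 with SNAIL, and at 13.52, 13.67 and 13.45 with shNT and 10.86, 10.78 and 10.65 with the CDH1 hairpin.

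CDH2, the gene of N-cadherin, and VIM, the gene of the mesenchymal filament vimentin, rose in each pair with averages of 3.45 ± 0.06 and 2.13 ± 0.07. Their SNAIL effects were small (0.90 ± 0.10 and 0.50 ± 0.12) beside those of TGFB1 (4.81 ± 0.10 and 2.99 ± 0.12). The lacZ control already held much of both: CDH2 stood at 10.55, 10.68 and 10.45 on the lacZ arrays, 6.41, 6.26 and 6.40 on the parental and 8.31, 8.07 and 8.14 on the shNT arrays, and 11.47, 11.47 and 11.44 on the SNAIL arrays. VIM stood at 12.87, 12.89 and 12.82 with lacZ, 10.36, 10.23 and 10.22 in parental cells and 13.39, 13.38 and 13.29 with SNAIL. With parental cells as the control of all 3 routes the CDH2 average was 5.46. The SNAIL effect on VIM lost its call without normalization between arrays (adjusted p = 0.118).

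**Figure D4:**
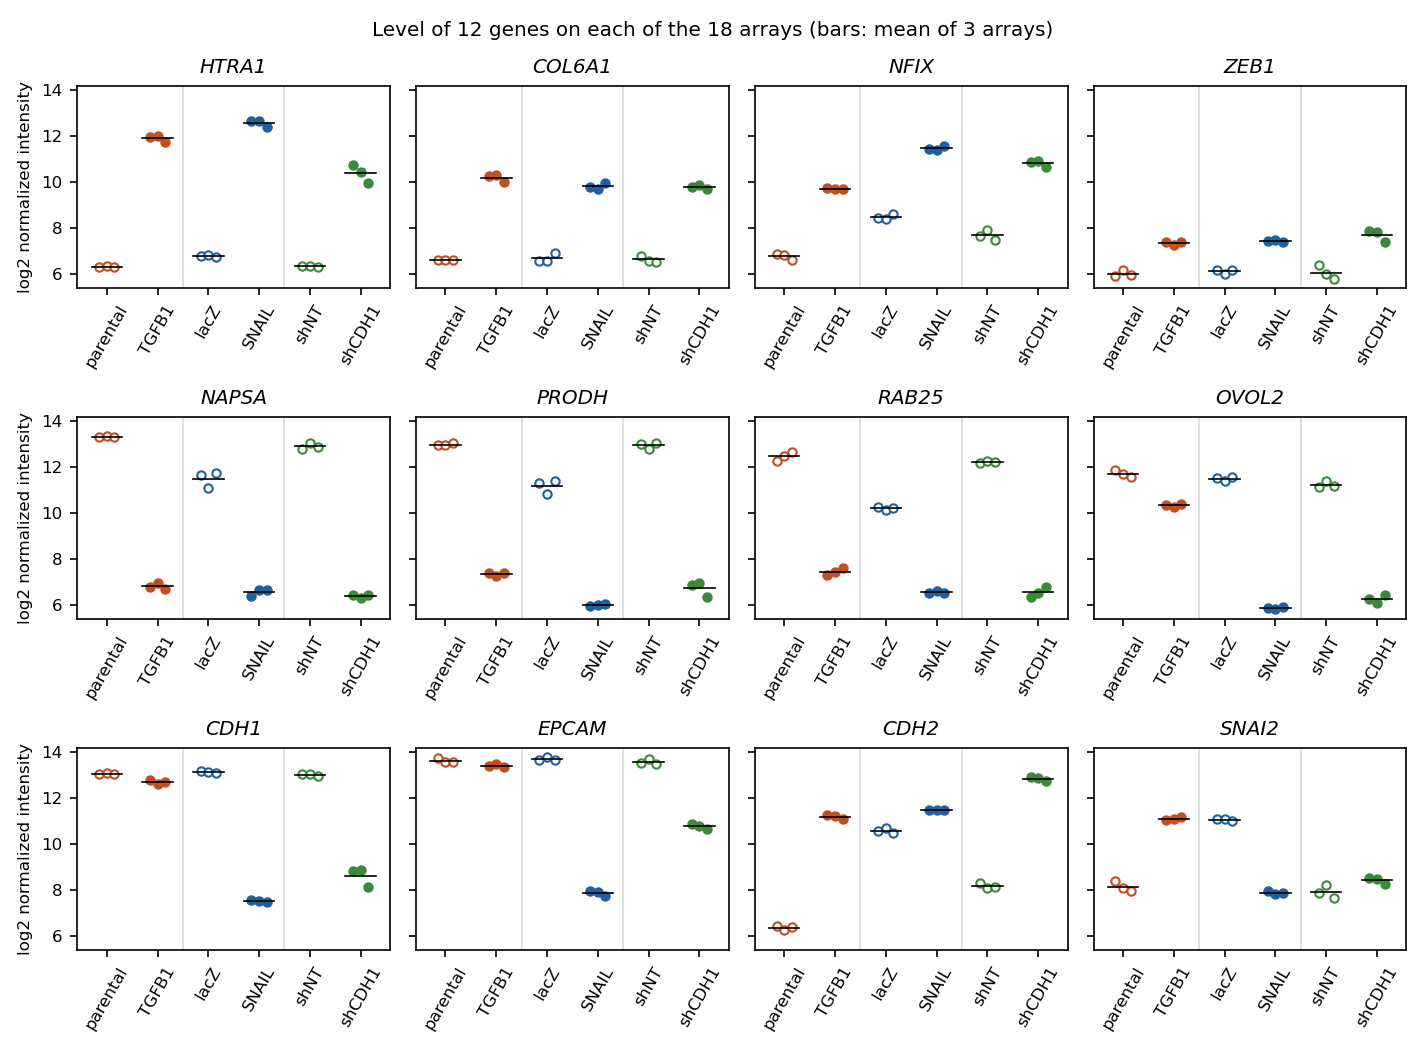
Level (vertical axis, log2 normalized intensity) of 12 genes on each of the 18 arrays, with open circles for the control and filled circles for the treated group of each pair and bars at the mean of 3 arrays. All of the 12 but EPCAM and SNAI2 split all 9 treated from all 9 control arrays. CDH1 and EPCAM stay above 12 with TGFB1, and SNAI2 moves in opposite directions in the TGFB1 and SNAIL pairs.

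Among 21 EMT transcription factors the average was higher for 11 and lower for 2, and 6 were shared and higher. Over all genes 22% averaged higher and 18.9% lower, and 3.61% were shared and higher. None of the 21 was shared and lower, where 4.23% of all genes were, so that count says little in a list of this size. ZEB1 lay at 5.90, 6.15 and 5.95 in the parental arrays and 7.36, 7.24 and 7.38 in the TGFB1 arrays. It lay at 6.16, 5.99 and 6.17 in the lacZ arrays and 7.41, 7.46 and 7.40 in the SNAIL arrays, and at 6.37, 5.99 and 5.80 in the shNT arrays and 7.88, 7.83 and 7.37 in the shCDH1 arrays. All 9 treated arrays stood above all 9 control arrays, with an average of 1.43 ± 0.08 (adjusted p = 3.11e-14). ZEB2, its paralog, averaged 2.24 ± 0.07 with effects of 2.37, 3.25 and 1.09, and TCF4, an E-protein that binds E-boxes, 1.80 ± 0.07 with effects of 1.69, 2.17 and 1.53. FOXF2, a mesenchymal forkhead factor, averaged 1.37 ± 0.06, carried mainly by SNAIL (3.20 ± 0.11). SOX9 and TBX3 averaged 1.79 ± 0.08 and 1.47 ± 0.07, but each had one weak effect (SNAIL 0.40, CDH1 hairpin 0.38). That effect lost its call for SOX9 without lacZ array 1 (adjusted p = 0.117), lacZ array 3 (0.0691) or SNAIL array 1 (0.0671). For TBX3 it was lost without shCDH1 array 3 (0.0512) or shNT array 3 (0.0696). The list's shared count was 3 without normalization between arrays. SNAI1, TWIST1 and PRRX1 were not shared: TWIST1 averaged 0.66 ± 0.10, from SNAIL (1.77 ± 0.18), and PRRX1 -0.03 ± 0.07.

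SNAI2, the gene of SLUG, had large effects of opposite sign that cancelled in the mean. Its average of 0.11 ± 0.08 was not called (adjusted p = 0.292), yet each of its 3 effects was: 2.97 ± 0.13 for TGFB1, -3.17 ± 0.13 for SNAIL and 0.52 ± 0.13 for the CDH1 hairpin (F adjusted p = 9e-19). Its level was 8.38, 8.06 and 7.93 in the parental arrays and 11.02, 11.09 and 11.18 in the TGFB1 arrays. It was 11.07, 11.08 and 10.98 in the lacZ arrays and 7.95, 7.80 and 7.88 in the SNAIL arrays, and 7.88, 8.20 and 7.63 in the shNT arrays and 8.53, 8.48 and 8.27 in the shCDH1 arrays. The lacZ arrays stood with the TGFB1 arrays, and the other 4 groups lay together near 8. Across all genes, 2279 were called in opposite directions in at least 2 pairs, and 1259 of these had no called average.

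Epithelial genes were mostly lower on average, with fewer of them shared. Of 27 junction genes measured, the average was lower for 22 and higher for 0, and 12 were shared and lower, against 4.23% of all genes. In 21 of the 27 the effects were called unequal, against 43.5% of all genes. Called effects in opposite directions were seen in 3 of them and in 2279 of all 20046 genes, a similar share. CDH3, the gene of P-cadherin, averaged -4.53 ± 0.07 with effects of -1.51, -5.94 and -6.13. CLDN7, a claudin of tight junctions, averaged -2.68 ± 0.08, MARVELD3, a tight junction membrane protein, -2.99 ± 0.07, and CRB3, an apical polarity protein, -2.40 ± 0.07. The desmosome genes DSC2, PKP2 and PKP3 averaged -1.78 ± 0.06, -1.49 ± 0.06 and -1.27 ± 0.08. JUP, the gene of plakoglobin, averaged -2.38 ± 0.08 but was not shared, with TGFB1 at -0.33 ± 0.14 (adjusted p = 0.0708). With the mean of its 3 probes JUP was shared. CLDN1, another claudin, went up with TGFB1 (1.64 ± 0.10) and down with SNAIL (-2.56 ± 0.10), both called. The scaffold gene TJP1 and the tight junction gene OCLN averaged -0.11 ± 0.06 and -0.06 ± 0.07. The median average of the list was -0.99, against 0.01 over all genes.

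Keratins, the filaments of epithelia, fell on average in 9 of 13 measured genes, and 2 were shared, KRT16 (-1.67 ± 0.10) and KRT8 (-1.26 ± 0.06). The shares over all genes were 18.9% lower on average and 4.23% shared and lower. The hairpin effect on KRT8 was not called without normalization between arrays (adjusted p = 0.0929). KRT19 averaged -2.61 ± 0.05, most of it from SNAIL (-0.74, -6.90 and -0.21). With parental cells as the control of all 3 routes, 6 keratins were shared and lower, against 1155 of all 20046 genes. The 3 effects then share the parental arrays.

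Transcription and splicing factors that maintain the epithelial state were lower on average in 16 of 19 measured genes and higher in 1, and 9 were shared and lower. Among all genes, 18.9% averaged lower and 22% higher, and 4.23% were shared and lower. OVOL2, a zinc finger factor that represses ZEB1, lay at 11.86, 11.67 and 11.57 in the parental arrays and 10.32, 10.26 and 10.38 in the TGFB1 arrays. It lay at 11.51, 11.37 and 11.53 in the lacZ arrays and 5.88, 5.81 and 5.91 in the SNAIL arrays, and at 11.10, 11.38 and 11.17 in the shNT arrays and 6.25, 6.09 and 6.41 in the shCDH1 arrays. Both virus pairs brought it to the level of the dimmest probes and TGFB1 did not. The average was -3.98 ± 0.07 (F adjusted p = 1.6e-17). GRHL2, which activates CDH1 and claudin genes, averaged -2.35 ± 0.09, and ESRP1, the splicing regulator of epithelial isoforms, -2.17 ± 0.09. The ETS factors ELF3 and EHF averaged -2.68 ± 0.07 and -3.32 ± 0.09, and the pioneer factor FOXA1 -3.61 ± 0.06 with effects of -0.70, -4.96 and -5.17. FOXA2 had called effects of both signs (-2.02, -3.73 and 1.07). KLF4, the 1 gene with a higher average (0.27 ± 0.05), was lower with SNAIL (-0.60 ± 0.09) and higher with the hairpin (1.33 ± 0.09).

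The list with the most shared members was that of epithelial surface proteases, channels and trafficking genes. The average was lower for 24 of its 29 measured genes, against 18.9% of all genes, and 18 were shared and lower, against 4.23%. ERBB3, the kinase-impaired partner of EGFR, averaged -3.91 ± 0.07 with effects of -2.09, -4.89 and -4.76. ST14 and PRSS8, the matriptase and prostasin genes of the epithelial protease cascade, averaged -3.36 ± 0.09 and -2.39 ± 0.07, and their inhibitor SPINT1 -2.38 ± 0.08. SPINT2, the related inhibitor, was not shared: its effects were 0.07, -5.82 and -0.79. MAL2, needed for transcytosis, averaged -4.81 ± 0.06, and MST1R, the receptor RON, -1.87 ± 0.07. Of 20 mucin and surface antigen genes, 16 averaged lower and 13 were shared and lower, against the same shares of all genes. They included MUC1 (-4.51 ± 0.07), LCN2, a secreted iron-siderophore carrier (-5.19 ± 0.06), TSPAN8, a tetraspanin (-4.81 ± 0.07), S100P (-3.19 ± 0.08) and MUC16, the CA125 antigen (-2.46 ± 0.10). MUC1 fell least with SNAIL (-5.25, -2.22 and -6.06, F adjusted p = 3.59e-16).

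Mesenchymal genes were less uniform. Of 31 cytoskeletal and adhesion genes, 23 averaged higher and 2 lower, and 8 were shared and higher, against 3.61% of all genes; without normalization between arrays the count was 4. SPARC, a collagen-binding matricellular protein, averaged 3.94 ± 0.07 with effects of 1.99, 6.24 and 3.58. ITGB3, the integrin beta subunit that pairs with alpha V, averaged 1.41 ± 0.08, TUBB6 0.85 ± 0.07 and LGALS1, a galectin, 0.88 ± 0.06. FN1, the fibronectin gene, averaged -0.05 ± 0.08 and was not called (adjusted p = 0.712). TAGLN, an actin-binding protein of smooth muscle and a TGF-beta target, was higher with TGFB1 (2.70 ± 0.11) and SNAIL (0.53 ± 0.11) and lower with the hairpin (-0.62 ± 0.11). CDH6, a cadherin, had effects of 4.21, -2.90 and 2.98, with SNAIL opposite to the other routes.

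Of 49 collagen and matrix genes, 30 averaged higher and 5 lower, yet 6 were shared and higher and 1 shared and lower. Among all genes, 22% averaged higher and 18.9% lower, and 3.61% were shared higher and 4.23% shared lower. Both lower counts of the list lay below those shares. COL5A1, the chain of a fibril-nucleating collagen, averaged 4.62 ± 0.07 with effects of 6.21, 5.17 and 2.47. LUM, a small proteoglycan that spaces collagen fibrils, averaged 3.55 ± 0.07, and THBS1, an activator of latent TGF-beta, 2.23 ± 0.09. TNC, the gene of tenascin C, was the 1 shared lower gene (-1.53 ± 0.07). Fibrillar collagen COL3A1 averaged 2.33 ± 0.07, most of it from SNAIL (6.55 ± 0.12), with 0.54 under TGFB1 and -0.11 with the hairpin. BGN, the proteoglycan biglycan, averaged 3.71 ± 0.06 from TGFB1 and SNAIL, and its hairpin effect of 0.21 ± 0.11 was not called (adjusted p = 0.153). With parental cells as the control of all 3, 12 matrix genes were shared and higher, against 984 of all 20046 genes. Of 29 proteases and inhibitors, 15 averaged higher and 9 lower, with 7 shared higher and 4 shared lower. After HTRA1 the shared higher members were led by ADAMTS6 (2.41 ± 0.07) and ADAMTS1 (2.27 ± 0.08), secreted metalloproteases. TIMP2, an inhibitor of metalloproteases, averaged 1.05 ± 0.05. The shared lower members besides MMP7 were TFPI2 (-1.72 ± 0.08), MMP15 (-0.71 ± 0.08) and MMP28 (-0.42 ± 0.07). MMP15 lost its TGFB1 call without the 2 dimmest arrays (adjusted p = 0.0778). MMP28 lost a call without lacZ array 2 or 3, SNAIL array 1 or 2, shCDH1 array 2 or shNT array 2 (adjusted p from 0.0562 to 0.19). Against parental cells its hairpin effect was 0.281 and not called (adjusted p = 0.0958). ADAM19 averaged 3.68 ± 0.09 from TGFB1 and SNAIL (6.56, 4.13 and 0.33), and MMP9 1.74 ± 0.07 mostly from TGFB1 (4.94, 0.57 and -0.29).

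**Figure D5:**
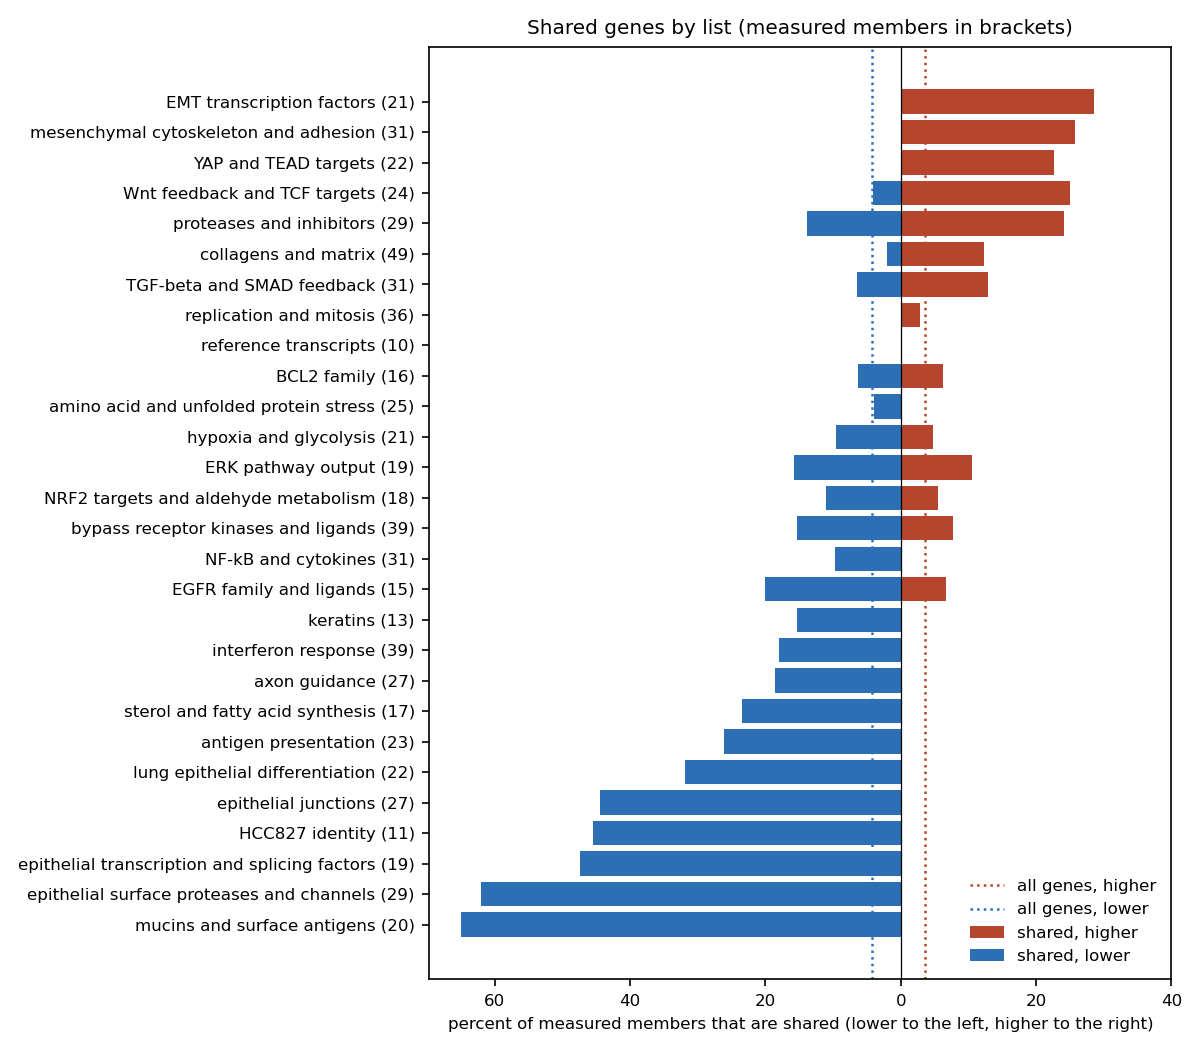
Percent of each list's measured members (number in brackets) that were shared, with lower genes to the left and higher genes to the right; dotted lines are the shares over all genes, 4.23% lower and 3.61% higher. The 5 lists with the largest lower shares are epithelial or those of the line's identity, and no list has more than 8 shared higher genes.

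The median average over all 20046 genes was 0.01. Over the measured members it was -0.99 for junction genes, -0.87 for keratins, -1.54 for epithelial transcription and splicing factors, -1.92 for surface proteases and channels, and -1.66 for mucins and surface antigens. It was 0.68 for mesenchymal cytoskeleton and adhesion genes, 0.51 for matrix genes, 0.24 for proteases and inhibitors, and 0.15 for EMT transcription factors. The interferon list, described further on, had the lowest median of the signalling lists, -0.65, and the YAP list the highest, 0.43. Without normalization between arrays, 3 EMT factors and 4 proteases and inhibitors were shared and higher, in place of 6 and 7.

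TGF-beta pathway genes moved both ways. Over all genes, for this list and those that follow, 22% averaged higher and 18.9% lower, and 3.61% were shared higher and 4.23% shared lower. Of 31 TGF-beta genes measured, 15 averaged higher and 8 lower, and 4 were shared higher and 2 shared lower, so the lower counts lay close to those shares. Among ligands TGFB2 (0.67 ± 0.10) and TGFB3 (0.44 ± 0.06) were shared and higher, while the TGFB1 gene averaged -0.24 ± 0.08. The co-receptor TGFBR3, betaglycan, rose most, averaging 2.99 ± 0.08 with effects of 2.34, 3.60 and 3.02. ID1 and ID4, inhibitors of E-proteins and targets of BMP signalling, were shared and lower (-1.68 ± 0.07 and -1.34 ± 0.06). TGFB2 lost its TGFB1 call without parental array 3 (adjusted p = 0.0516), with median centring (0.0854) and without normalization between arrays (0.527). With parental cells as the control of all 3, its hairpin effect was -0.265 and not called (adjusted p = 0.264). TGFB3 lost its SNAIL call without lacZ array 1 (adjusted p = 0.114), SNAIL array 1 (0.121) or SNAIL array 2 (0.0636). The SMAD feedback genes SMAD7 and PMEPA1 rose with TGFB1 (1.25 ± 0.11 and 3.68 ± 0.14) and fell with SNAIL (-0.43 ± 0.11 and -0.46 ± 0.14), and PMEPA1 also fell with the hairpin (-1.14 ± 0.14). SKIL, a SMAD co-repressor, was shared and higher (0.77 ± 0.07), and its SNAIL effect lost the call without normalization between arrays (adjusted p = 0.0923). The list then held 1 shared higher gene. With the mean of all probes the SNAIL effect on SKIL was 0.12 and not called (adjusted p = 0.348). With parental cells as the control of all 3, its hairpin effect was 0.07 and not called (adjusted p = 0.762).

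EGFR averaged -0.12 ± 0.04 (adjusted p = 0.0217) on its brightest probe and 0.26 (adjusted p = 0.000558) over the mean of its 4 probes, so its direction depended on the probe, and it was not shared, whereas some of its partners and ligands moved further. Of 15 genes of the family, 4 averaged higher and 7 lower; HBEGF, a membrane-bound ligand, was shared and higher (1.69 ± 0.08, effects 2.23, 1.47 and 1.37). ERBB3, given above, and the ligands TGFA (-3.04 ± 0.09) and BTC (-1.15 ± 0.09) were shared and lower. TGFA lost its TGFB1 call without the 2 dimmest arrays (adjusted p = 0.168), and BTC its hairpin call without normalization (0.0979). Among 39 other receptor kinases and their ligands, 17 averaged higher and 14 lower, with 3 shared higher and 6 shared lower. AXL, a TAM receptor known for its role in EGFR inhibitor resistance, averaged 3.40 ± 0.08 and lay at 7.26, 7.37 and 7.11 in the parental arrays and 8.98, 9.15 and 8.80 in the TGFB1 arrays. It lay at 7.80, 8.11 and 8.35 in the lacZ arrays and 12.83, 12.77 and 12.42 in the SNAIL arrays, and at 7.30, 6.94 and 6.98 in the shNT arrays and 10.91, 10.93 and 11.02 in the shCDH1 arrays. The arrays did not overlap in any pair, and TGFB1 gave the smallest rise (1.73 ± 0.14, F adjusted p = 1.06e-11).

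Among the TAM relatives of AXL, TYRO3 was shared and higher (0.68 ± 0.07) and MERTK was shared and lower (-1.77 ± 0.06). IGFBP7, a secreted binding protein of the matrix, averaged 3.31 ± 0.06, while IGFBP3, which binds insulin-like growth factors in serum, averaged -2.36 ± 0.07 with effects of -2.45, -2.59 and -2.04 (F adjusted p = 0.0146). FGFBP1, which releases FGFs from the matrix, averaged -3.51 ± 0.08, and DDR1, the epithelial collagen receptor kinase, -1.39 ± 0.07. MET averaged -0.50 ± 0.06 and was not shared. PDGFRB averaged 1.65 ± 0.07, most of it from SNAIL (4.37 ± 0.11). With parental cells as the control of all 3, 8 genes of this list were shared and higher and 8 shared and lower. Over all 20046 genes those counts were 984 and 1155.

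Of 19 ERK output genes, 5 averaged higher and 8 lower, with 2 shared higher and 3 shared lower. The phosphatase genes of this list went both ways, DUSP6 with an average of -1.39 ± 0.06 and DUSP1, which is also induced by stress, with 1.76 ± 0.08. ETV5, an ETS factor induced by ERK, was shared and higher (0.63 ± 0.06), without its TGFB1 call when the 2 dimmest arrays were left out (effect 0.396). Without normalization between arrays the TGFB1 effect on ETV5 was 0.16 (adjusted p = 0.599). With parental cells as the control of all 3, its SNAIL effect was 0.02 and not called (adjusted p = 0.903). SPRY1, a feedback inhibitor, was shared and lower (-1.25 ± 0.07), without its hairpin call when arrays were not normalized (adjusted p = 0.155). DUSP4 had called effects of both signs (-0.64, -1.01 and 1.67). Of 22 YAP and TEAD targets, 12 averaged higher and 4 lower, and 5 were shared and higher: CCN2, AXL, TGFB2, GADD45A, a growth arrest gene (1.24 ± 0.08), and CCN1, a matricellular relative of CCN2 (0.90 ± 0.05). The SNAIL effect on CCN1 was not called without normalization (adjusted p = 0.1), and the count was then 3. ANKRD1, often used as a YAP readout, averaged 0.24 ± 0.10 (not called, adjusted p = 0.0583), with 1.31 ± 0.17 under TGFB1. Of 24 Wnt genes, 12 averaged higher and 5 lower, and 6 were shared and higher, a count of 3 without that normalization. WNT5A, a noncanonical ligand, averaged 2.79 ± 0.07, FZD7, a receptor, 1.66 ± 0.07, and TNFRSF19, a TCF target, 2.14 ± 0.08 with effects of 2.51, 1.72 and 2.18. LGR4, the R-spondin receptor, was shared and lower (-1.27 ± 0.10); its hairpin effect lost the call without shCDH1 array 3 (adjusted p = 0.297) or shNT array 2 (0.286).

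In the BCL2 family, 4 of 16 genes averaged higher and 6 lower, and 1 in each direction was shared, close to the shares over all genes (22% and 18.9% called, 3.61% and 4.23% shared) in all but the lower averages. BCL2L11, the gene of BIM, which EGFR inhibitors induce, averaged -0.67 ± 0.08. Its TGFB1 effect (-0.44 ± 0.15) lost the call without parental array 1 (adjusted p = 0.112), TGFB1 array 2 (0.0639) or TGFB1 array 3 (0.102). Its hairpin effect lost it with the mean of all probes (0.568). BOK averaged 0.61 ± 0.08; its hairpin effect was not called without shNT array 2 (adjusted p = 0.0658). BCL2 averaged 1.08 ± 0.09 from both virus pairs, with -0.01 ± 0.16 under TGFB1.

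Part of the lung differentiation genes fell by every route. Of 22 lung genes, 11 had a mean above the median probe; 10 averaged lower and 3 higher, and 7 were shared and lower. NKX2-1, the lineage factor of lung epithelium, averaged -2.52 ± 0.07 with effects of -0.77, -2.69 and -4.11, and the surfactant-associated genes SFTA2 and SFTA3 -4.61 ± 0.07 and -3.04 ± 0.09. LAMP3, of lamellar bodies, averaged -1.39 ± 0.08. ABCA3, the lipid transporter of lamellar bodies, had called effects of both signs (2.06, -1.47 and 0.48).

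Interferon-response genes were lower on average in 30 of 39 cases and higher in 2, but 7 were shared. Of the 39, 18 had called effects in opposite directions, against 2279 of all 20046 genes. The list's median effect was -0.87 with TGFB1, 0.06 with SNAIL and -1.12 with the hairpin. GBP1, an interferon-induced GTPase, averaged -1.78 ± 0.07, IFIH1, the RNA sensor MDA5, -1.74 ± 0.07, and SAMD9L, an antiviral factor, -1.80 ± 0.09. GBP1 lost its TGFB1 call without the 2 dimmest arrays (adjusted p = 0.0643). OAS2, an antiviral enzyme gene, fell with TGFB1 and the hairpin and rose with SNAIL, with effects of -2.18, 2.75 and -0.91. The count of 7 depended on the control: with parental cells as the control of all 3 routes, 27 of the 39 were shared and lower. Over all genes, 1155 of 20046 were shared and lower with that control. The 3 effects then share the parental arrays, and both virus effects include the virus, so sharing is partly built in. Of 23 antigen presentation genes, 14 averaged lower and 6 were shared and lower, among them the class II chaperone gene HLA-DMB (-2.78 ± 0.07) and the immunoproteasome genes PSMB8 (-1.45 ± 0.07) and PSMB9 (-0.81 ± 0.09). B2M, the light chain of class I molecules, averaged -0.00 ± 0.05. Of 31 NF-kB and cytokine genes, 16 averaged lower and 8 higher, with 3 shared, all lower. Called effects in opposite directions were seen in 15 of the 31, against 2279 of all 20046 genes. IL20RB, a receptor chain of the IL-20 family, was shared with effects of -3.18, -3.82 and -4.16 (-3.72 ± 0.06 on average), as was IL1RN, an antagonist of interleukin-1 (-1.35 ± 0.07). The last of them, the chemokine gene CCL20 (-2.34 ± 0.06), had a SNAIL effect of -0.32 ± 0.11 that was not called without lacZ array 2 (adjusted p = 0.0613) or SNAIL array 3 (0.0659). IL6 averaged 0.48 ± 0.06 from effects of 4.56, 0.64 and -3.75.

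Metabolic and cell cycle lists differed in their shared calls, against 3.61% higher and 4.23% lower over all genes. Of 17 sterol and fatty acid genes, 12 averaged lower and 1 higher, and 4 were shared and lower, led by SREBF1, a lipid synthesis regulator (-1.34 ± 0.06), and HMGCS1, a sterol synthesis enzyme (-0.91 ± 0.06). Of 18 NRF2 and aldehyde metabolism genes, 10 averaged lower and 5 higher; the glutathione peroxidase GPX2 (-3.44 ± 0.12) and the efflux pump ABCC3 (-2.79 ± 0.08) were shared and lower. HMOX1, the haem oxygenase gene, was shared and higher (1.23 ± 0.07), but its SNAIL effect (0.32 ± 0.12) was not called in 5 of the 6 fits that each left out a lacZ or SNAIL array, with adjusted p-values from 0.059 to 0.129. ALDH1A1 averaged 1.50 ± 0.09 from the hairpin pair (5.58 ± 0.15) against SNAIL (-0.92 ± 0.15). Of 21 hypoxia and glycolysis genes, 11 averaged lower and 3 higher, and 1 was shared higher and 2 shared lower. The higher one was CA12, a carbonic anhydrase (1.07 ± 0.10), and the lower ones were HK2, a hexokinase (-0.78 ± 0.06), and EGLN3, an oxygen sensor enzyme (-1.17 ± 0.08). Replication and mitosis genes were higher in 9 and lower in 16 of 36 cases, with 1 shared, PLK1 (0.63 ± 0.09), and the proliferation marker MKI67 averaged -0.42 ± 0.07. Of 25 stress genes, 9 averaged higher and 7 lower, with 1 shared, the chaperone gene PDIA4 (-0.74 ± 0.07), so the shared counts of the replication and stress lists lay at or below those shares. The TGFB1 effect on PLK1 was not called without parental array 3 (adjusted p = 0.18), the SNAIL effect on PDIA4 without SNAIL array 2 (0.0781), the SNAIL effect on CA12 without lacZ array 3 (0.171), and the TGFB1 effect on EGLN3 without parental array 1 (0.0523); PLK1, PDIA4 and CA12 lost a call with other arrays left out as well. Of 27 axon guidance genes, 12 averaged lower and 5 higher, and 5 were shared and lower, led by SEMA4B (-2.43 ± 0.06) and EPHA1 (-2.08 ± 0.08), a semaphorin and an ephrin receptor. Of 10 reference transcripts 4 averaged lower and 0 higher, led by SDHA, a respiratory chain subunit (-0.53 ± 0.05). Effects were called unequal in 6, against 43.5% of all genes, and none was shared. GAPDH and ACTB averaged -0.01 ± 0.04 and -0.03 ± 0.03.

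Large averages also came from 2 routes while the remaining one did not follow. LCP1, the gene of the actin bundler L-plastin, averaged -4.18 ± 0.06. It lay at 13.18, 13.25 and 13.24 in the parental arrays and 13.41, 13.09 and 13.21 in the TGFB1 arrays, a difference of 0.02 ± 0.10. It lay at 13.16, 12.92 and 13.07 with lacZ and 6.98, 6.81 and 7.02 with SNAIL, and at 13.13, 12.98 and 13.05 with shNT and 6.43, 6.69 and 6.73 with the hairpin. Both virus pairs thus brought it from a high level to near or below the median of all probes, and its TGFB1 effect was not called (adjusted p = 0.94). SGCE, a sarcoglycan, and COXFA4L3, a paralog of a respiratory chain subunit, also fell in both virus pairs. Their effects were 0.01, -4.69 and -4.08, and 0.27, -6.17 and -5.08. The small TGFB1 rise of COXFA4L3 was called (adjusted p = 0.047). Its sign depended on the probe, since the other probes of COXFA4L3 had TGFB1 effects of 1.18 and -0.41. CALB2, the calcium-binding protein calretinin, averaged 3.47 ± 0.07 from TGFB1 and the hairpin (5.98 ± 0.11 and 4.89 ± 0.11), with SNAIL at -0.47 ± 0.11. The chemokine gene CCL2, the glypican gene GPC4 and the surface peptidase gene MME rose with TGFB1 and SNAIL (averages 3.05 ± 0.06, 2.71 ± 0.07 and 2.74 ± 0.06) and had -0.38 ± 0.11, -0.51 ± 0.12 and -0.06 ± 0.11 with the hairpin. Leaving 1 route out of the mean turned the sign of the average for 251 called genes (without TGFB1), 496 (without SNAIL) and 373 (without the CDH1 hairpin).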

How the data were processed

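Total RNA of HCC827 cells, 18 samples in 6 groups of 3, was made into labelled cRNA for Illumina bead arrays, per the labels' protocols. The deposited table holds linear intensity values that had not been normalized between arrays, as read from its values; scanner and software are not given in the sources used here. It holds 47323 probes; 2 with a value of 0 were left out. Intensities were corrected with limma 3.58.1 (R 4.3.3) normexp (offset 50), log2 transformed and made alike in distribution over arrays by quantile normalization, whereas the written design had assumed normalized values. Platform annotation gave 30113 probes 1 symbol, and the brightest probe stood for each of 20046 genes. A linear model of 6 group means (12 residual degrees of freedom, eBayes with intensity trend) gave the 3 effects, their mean, and a moderated F test of their differences. The script was tested on simulated data. The number of arrays limits the precision; detection p-values were not used.

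The members, the 31 gene lists (688 of 737 symbols measured) and the tests were chosen with earlier results of these data known. Named were the classical EMT genes, the 15 shared genes of each direction with the largest weakest effect and non-overlapping arrays, up to 4 shared members per list by size of average, and the 5 highest and 5 lowest called averages of mixed sign. Other list members named were picked after their values were seen, to show members that were not shared or lay further down a list. Some genes stand in several lists. Alternatives covered normalization, background, probe choice, moderation, array weights, the control group, a replicate block, and leaving out each array or route. Promoter windows came from RefSeq (GRCh38.p14), read with Python 3.11.15; gene positions were otherwise not used here.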

Additional observations from a re-analysis of the deposited data

Results flagged for a closer look

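Among the 124 genes named by rule, some of which were taken for effects of mixed sign, 7 had called effects of opposite sign in 2 routes whose difference was itself called in the same limma model, and the difference is given here in log2 units. The TGFB1 effect exceeded the SNAIL effect by 6.91 for CNTNAP2 (SE 0.19, adjusted p = 7.02e-20), a neurexin-family adhesion gene. For CALB2 it did so by 6.46 (SE 0.16, adjusted p = 7.94e-21), for COXFA4L3 by 6.44 (SE 0.14, adjusted p = 1.11e-21) and for SNAI2 by 6.14 (SE 0.19, adjusted p = 4.35e-19). The TGFB1 effect exceeded the CDH1 hairpin effect by 7.39 for the chemokine gene CXCL5 (SE 0.16, adjusted p = 6.38e-22). For CCL2 it did so by 5.42 (SE 0.16, adjusted p = 9.94e-20) and for GPC4 by 4.92 (SE 0.18, adjusted p = 8.95e-18). Of these, CNTNAP2 and CXCL5 rose with TGFB1 (2.06 and 1.41) and fell in both virus pairs. For CALB2, CCL2 and GPC4 the opposing effect was under 1 log2 unit, as was the TGFB1 effect on COXFA4L3, whose sign depended on the probe.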

How the results depend on the processing

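Counts over all genes stayed within 1.5 times of the values above in 159 of 167 comparisons with alternatives. Without normalization between arrays, 2198 averages were called higher and 255 genes were shared and higher. Stricter and looser rules gave 531 higher and 643 lower averages of at least 1 log2 unit, 139 and 212 shared genes with each effect that large, and 2553 and 2322 genes with a called average and 1 sign in all 3 pairs. Leaving out each array in turn gave 659 to 734 shared higher and 788 to 861 shared lower genes, 4220 to 4449 higher and 3641 to 3840 lower averages, and 8284 to 8975 genes of unequal effects. The shared call held for 1225 of 1570 genes with median centring, 1385 with the mean of all probes, 1364 with parental cells as the control of all 3, and 1334 when arrays with one number in the labels' descriptions (1, 1 and 2) were averaged. Without the 2 dimmest arrays, an alternative chosen after seeing the data, 552 and 682 genes were shared. With the replicate block, 771 and 885 genes were shared and 4497 and 3868 averages called, and 1562 of the 1570 shared genes kept the call. Equally numbered arrays deviated together with r from -0.128 to 0.218, over 0.1 in 5 of 9 pairs. For unequally numbered arrays r lay between -0.319 and 0.198. The numbers were not taken to pair the samples because the labels do not say that they mark a shared batch. These values do not settle whether they do. Of 4215 averages of named genes under 34 alternatives, 1 reversed: SNAI2 was -1.32 without the TGFB1 effect. SNAI2 was called at 1.01 with parental cells as the control and at 1.75 without the SNAIL effect, BCL2L11 (-0.27) was not called with that control, and IL1RN (-0.13) was not called with an offset of 16. Without normalization TUBB6, TYRO3, MERTK and FOXF2 also lost the shared call. With a floor in place of the background model the averages of ZEB1, ITGB3, TCF4 and ID4 were 0.77, 0.87, 1.10 and -0.71, and with parental cells as the control those of KRT16, CCN1, FZD7 and HLA-DMB were -2.92, 1.50, 2.78 and -1.68. Of 3844 list counts, 156 moved by over 1.5 times. The dim end of the scale limits folds of dim genes.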

Other observations

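A few gene families outside the lists were counted after the leading genes had been seen, so the counts are descriptions; over all genes 3.61% were shared higher and 4.23% shared lower, and the MAGE, HOX and beta-defensin counts differ little from those shares. Of 10 SPANX genes measured, 5 were shared and higher, with near-identical letters among them, while of 32 MAGE genes 2 were, MAGEB2 and MAGED2 (1.08 ± 0.07). All 3 fibrinogen chain genes were shared and lower, FGA with an average of -2.00 ± 0.07. Of 18 MSX, DLX, PRRX and LHX homeobox genes, 4 were shared and higher: MSX1, PRRX2, DLX1 (2.24 ± 0.07) and LHX6 (1.67 ± 0.07); of 29 HOX genes 1 was shared higher and 1 shared lower. Among 16 genes of collagen processing, 9 averaged higher and 0 lower. The 5 that were shared and higher were the prolyl hydroxylase genes P3H1 (1.72 ± 0.06), P3H2 (2.00 ± 0.06) and P3H3 (1.28 ± 0.08), the lysyl hydroxylase gene PLOD1 (1.07 ± 0.05), and PCOLCE2 (2.32 ± 0.06), an enhancer of procollagen cleavage. Of 62 RAB GTPase genes, 4 were shared higher and 5 shared lower, and RAB27B, a regulator of secretory granules, averaged -1.93 ± 0.05. Of 11 SERPINB genes 3 were shared and lower, SERPINB1, SERPINB3 and SERPINB4, the last of these near-identical to SERPINB3. Of 37 beta-defensin genes 2 were shared and lower, DEFB1 (-3.44 ± 0.10) and DEFB4A (-4.02 ± 0.06).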
